A study of Homo sapiens with 9 samples.

Results

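Interferon response genes are the transcripts that cells induce when interferons, the cytokines of antiviral defence, bind their receptors. A list of 56 such genes was followed by gene symbol through the authors' deposited table of comparisons, and 42 of them have a row among 13410 genes. The 14 with no row, not analysed here, are IFIT1, IFIT2, IFIT3, IFITM1, OAS1, OAS2, OAS3, MX1, HERC5, TRIM22, GBP1, IFI44L, IRF9 and TAP1, so several of the most used indicators of interferon signalling were not used.

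Type I interferons act through JAK1 and TYK2, which phosphorylate STAT factors such as STAT2. With IRF9 these form a complex that binds the interferon-stimulated response element in target promoters. A similar set of genes can be induced when sensors of misplaced DNA or RNA, such as cGAS with STING or the RIG-I-like helicases, switch on IRF factors. In myeloid cells, many of these genes are also expressed at a basal level without added interferon.

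The cells were MV4-11, an established acute myeloid leukaemia line of monocytic character that carries an MLL fusion and an internal duplication in FLT3. They were kept for 18 h in 1000 nM alisertib, in 100 nM JB170 or in the vehicle DMSO, with 3 libraries per group and 9 in all. Alisertib inhibits the kinase activity of Aurora A, a mitotic kinase, and JB170 joins an alisertib-derived ligand to a ligand of the ubiquitin ligase receptor cereblon, so that Aurora A is degraded. Their doses differ, and the labels do not say whether the replicates were separate cultures, so p-values reflect the spread among these libraries alone and that spread may be technical. For each of 4 comparisons with DMSO the table holds a log2 fold change with its p-value, raw and adjusted. The comparisons are headed A1000, A100, MK and JB170. A1000 was read as alisertib from its dose, while A100 and MK match no group of the labels and are called by their headers. Every value here is treated minus DMSO; this direction was inferred from the values. All 4 headers have the same form, DMSO against the treatment, yet JB170 ran opposite to the other 3, so its sign was kept and theirs were turned. If the JB170 column ran the other way, each sign given for JB170 would turn. The direction of the other 3 was inferred in the same way, and their signs would turn too if it were wrong. All 4 headers name DMSO, but the labels do not give the libraries behind A100 and MK. If the 4 comparisons share DMSO libraries, a chance deviation of the DMSO group would move a gene the same way in all of them. Only these comparisons are used here, with no level for any single library, and sequencing depth is unknown. The RNA was taken from the whole culture, in which a change in the share of a cell type and a change in RNA per cell cannot be told apart.

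Of 10 markers of a monocytic leukaemia line, all 10 have a row, with a mean between 0.62 log2 CPM (a read count scaled to library size) for CD14 and 9.88 log2 CPM for FLT3 per the authors' deposited table. HOXA9 stood low, at a mean of 1.41 log2 CPM per the authors' deposited table. The libraries over which the authors took the mean log2 CPM are not given. Of 14 markers of other cell types, 5 have a row and none was called in any comparison. With alisertib, CSF1R, which encodes a macrophage growth factor receptor, rose by 0.69 and PTPRC, the leukocyte antigen CD45, by 0.37 per the authors' deposited table. The other 8 were not called: MPO (0.19), LYZ (0.24) and HOXA9 (0.71) lay above 0, and CD33 (-0.16), FLT3 (-0.07), CD14 (-0.61), MEIS1 (-0.08) and SPI1 (-0.05) below it, per the authors' deposited table. In A100, CSF1R was the 1 marker called, at 0.46 (adjusted p = 0.0121) per the authors' deposited table, and none was called in MK or with JB170. Of all genes, 5.92% were called with alisertib, 1.3% in A100, 0.47% in MK and 0.0298% with JB170. The part of these marker values in the interferon genes was not tested.

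The starts of 5 of these genes are shown because their letters differ where the interferon-stimulated response element would lie. Each sequence holds the 250 bases before the start of the RefSeq transcript on the gene's own strand (GRCh38.p14), and capitals mark every match to the core of the element, GAAA, any 2 bases and GAAA, on either strand. In SAMD9 (chr7:93117980-93118229, minus strand) the match covers bases -136 to -127 from the start. SAMD9L (chr7:93148386-93148635, minus strand) has no exact match to this core in this window. In BST2 (chr19:17405631-17405880, minus strand) 2 overlapping matches run from -130 to -115, and in ISG15 (chr1:1013247-1013496, plus strand) 2 overlapping matches run from -113 to -98. In IFI44 (chr1:78649539-78649788, plus strand) the match is on the opposite strand, from -18 to -9. IFI44 has 2 such windows, and the window shown was picked because it holds a match.
SAMD9: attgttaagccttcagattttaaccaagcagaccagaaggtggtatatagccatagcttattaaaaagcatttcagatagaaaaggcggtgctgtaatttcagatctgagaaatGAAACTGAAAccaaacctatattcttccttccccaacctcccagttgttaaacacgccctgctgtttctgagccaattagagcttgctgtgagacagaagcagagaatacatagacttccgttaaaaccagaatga
SAMD9L: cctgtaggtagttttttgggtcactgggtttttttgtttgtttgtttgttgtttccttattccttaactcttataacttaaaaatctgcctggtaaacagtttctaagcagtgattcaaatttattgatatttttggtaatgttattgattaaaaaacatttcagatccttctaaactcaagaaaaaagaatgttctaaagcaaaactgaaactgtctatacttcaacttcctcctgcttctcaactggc
BST2: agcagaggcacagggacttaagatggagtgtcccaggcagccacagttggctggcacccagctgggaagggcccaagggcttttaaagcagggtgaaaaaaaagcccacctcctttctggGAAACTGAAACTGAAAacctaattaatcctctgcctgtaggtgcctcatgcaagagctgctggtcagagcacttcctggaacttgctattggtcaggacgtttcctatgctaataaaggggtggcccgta
IFI44: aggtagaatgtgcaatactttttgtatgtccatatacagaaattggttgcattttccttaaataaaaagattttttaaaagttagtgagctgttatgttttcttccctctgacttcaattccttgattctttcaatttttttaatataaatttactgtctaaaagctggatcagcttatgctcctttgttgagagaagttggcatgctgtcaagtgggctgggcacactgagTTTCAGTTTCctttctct
ISG15: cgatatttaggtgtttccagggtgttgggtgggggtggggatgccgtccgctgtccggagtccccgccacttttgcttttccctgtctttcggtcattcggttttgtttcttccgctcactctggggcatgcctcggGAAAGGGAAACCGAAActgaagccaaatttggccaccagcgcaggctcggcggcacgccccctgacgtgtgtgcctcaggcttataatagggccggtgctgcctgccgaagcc

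With 1000 nM alisertib, 6 of the 42 genes rose and none fell, at the authors' adjusted p under 0.05. The 6 are SAMD9, SAMD9L, IFI16, BST2, UBE2L6 and IFI44. That is 14.3% of the genes, against 5.92% of all 13410 genes called in this comparison, 3.09% higher and 2.83% lower. The changes were modest: 5 of the 6 were below a doubling, from 1.24-fold for BST2 to 1.95-fold for SAMD9L. At an unadjusted p under 0.05 stood 12 genes above and 1 below DMSO, where 17.6% of all genes did, 9.08% above and 8.52% below. The median over the 42 genes was 0.28 on the log2 scale, against 0.006 over all genes, and 36 of 42 values (85.7%) lay above 0, against 51.2% of all genes. The list was chosen with earlier results of these data known. The shares given here and for the other comparisons therefore describe the list and are no independent test.

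In the A100 comparison 3 genes rose, SAMD9, IFI16 and RNF213, and none fell. These are 7.14% of the list, where 1.3% of all genes were called, 0.761% higher and 0.537% lower. At an unadjusted p under 0.05 stood 6 genes above and 1 below DMSO, where 11.6% of all genes did, 6.34% above and 5.3% below. The median of the list was 0.18, and 30 of 42 values lay above 0 (71.4%, against 50.7% of all genes). In the MK comparison none was called, against 0.47% of all genes, 0.321% higher and 0.149% lower. There 7 genes stood above and 1 below DMSO at an unadjusted p under 0.05, where 8.65% of all genes did, 4.06% above and 4.59% below. The MK median was 0.076, with 25 of 42 values above 0 (59.5%, against 49.9% of all genes).

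With 100 nM JB170, none of the 42 genes was called. In this comparison 0.0298% of all genes were called, 0.0224% higher and 0.00746% lower. At an unadjusted p under 0.05 stood USP18 and SAMD9 above and XAF1 below DMSO, 7.14% of the list against 3.02% of all genes, 1.39% above and 1.63% below. The median of the list was 0.068, and 27 of 42 values lay above 0 (64.3%, against 51% of all genes). With this column turned, 15 of 42 values would lie above 0, against 6577 of 13410 over all genes.

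**Figure D1:**
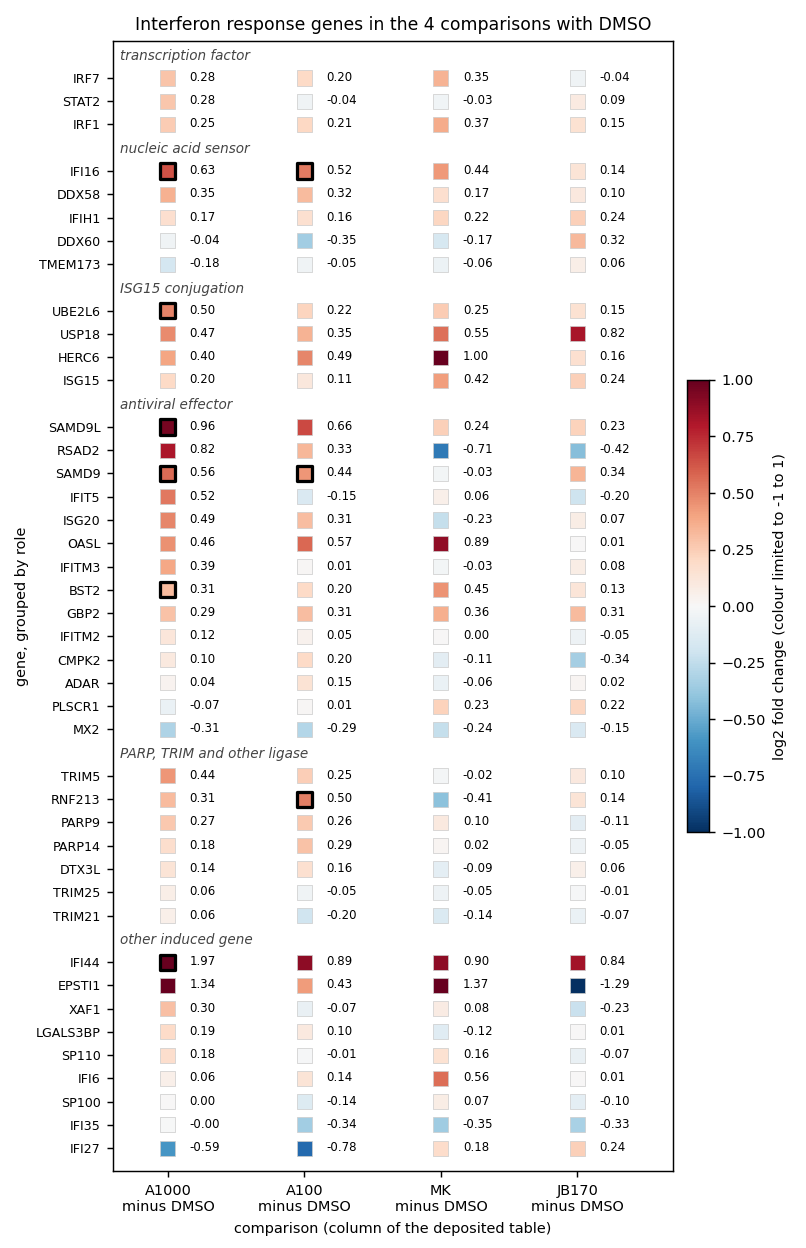
Log2 fold change (treated minus DMSO) of the 42 interferon response genes with a row, 1 line per gene grouped by role, in the 4 comparisons of the deposited table. Colour (limited to -1 and 1) and number give the log2 fold change, and a black frame marks an adjusted p under 0.05; frames appear at 6 genes in the A1000 column and 3 in the A100 column, and at none in the MK and JB170 columns.

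Among the transcription factors, 3 of 4 have a row and none passed the test in any comparison. Of all genes, 5.92% passed with alisertib, 1.3% in A100, 0.47% in MK and 0.0298% with JB170. STAT2, a subunit of the interferon-activated complex, stood at 0.28 with alisertib (p = 0.0202, adjusted p = 0.190), -0.04 in A100, -0.03 in MK and 0.09 with JB170 per the authors' deposited table. IRF1, a factor induced by interferons and by NF-kB signalling, stood at 0.25, 0.21, 0.37 and 0.15 in the same order per the authors' deposited table. IRF7, which amplifies the production of type I interferon, stood at 0.28 with alisertib, 0.20 in A100, 0.35 in MK and -0.04 with JB170 per the authors' deposited table. All 3 factors lay above 0 with alisertib, by similar amounts, where 51.2% of all genes did. IRF1 had an unadjusted p of 0.0370 with alisertib and 0.0168 in MK per the authors' deposited table.

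Of the nucleic acid sensors, IFI16 rose. IFI16, which binds DNA in the nucleus and cytoplasm (ENSG00000163565, chromosome 1 from 158999968 to 159055155 on the plus strand, GRCh38), was higher by 0.63 with alisertib (adjusted p = 0.00113) and by 0.52 in A100 (adjusted p = 0.0499) per the authors' deposited table. Its values were 0.44 in MK and 0.14 with JB170, both short of the threshold per the authors' deposited table. The approximate 95% interval implied by fold change and p-value ran from 0.35 to 0.92 with alisertib and from -0.18 to 0.45 with JB170. The receptors of double-stranded RNA gave smaller values: DDX58, which encodes RIG-I, stood at 0.35 and IFIH1, which encodes MDA5, at 0.17 with alisertib, both short of the threshold, per the authors' deposited table. TMEM173, which encodes STING, the adaptor below cGAS, stood at -0.18 with alisertib and 0.06 with JB170 per the authors' deposited table (adjusted p = 0.335 and 1). DDX60, a helicase reported to assist RIG-I, ranged from -0.35 to 0.32 over the 4 comparisons per the authors' deposited table.

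ISG15 is a ubiquitin-like protein that is attached to others by the conjugating enzyme UBE2L6 and, in human cells, the ligase HERC5, and is removed by USP18. All 4 genes of this group with a row lay above 0 in all 4 comparisons, which may share DMSO libraries. Between 49.9% and 51.2% of all genes lay above 0 in each. UBE2L6 (ENSG00000156587, chromosome 11 from 57551656 to 57568284 on the minus strand) rose by 0.50 with alisertib (adjusted p = 0.0242) and stood at 0.22 in A100, 0.25 in MK and 0.15 with JB170 per the authors' deposited table. ISG15 itself stood at 0.20 with alisertib, 0.11 in A100, 0.42 in MK (p = 0.0485, adjusted p = 0.583) and 0.24 with JB170 per the authors' deposited table. USP18, which also restrains the type I receptor, stood at 0.47 with alisertib and had its highest value, 0.82, with JB170 (p = 0.0433, adjusted p = 1) per the authors' deposited table. HERC6, a relative of HERC5, reached 1.00 in MK (p = 0.0308, adjusted p = 0.507) and 0.40 with alisertib per the authors' deposited table. USP18 and HERC6 were measured at low means of 1.77 and 1.16 log2 CPM per the authors' deposited table, where the errors are wide.

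Of the 14 antiviral effectors with a row, 3 rose with alisertib and none fell, where 3.09% of all genes rose and 2.83% fell. SAMD9 and SAMD9L, growth-restraining proteins whose germline mutations predispose to myeloid disease, lie 12031 bases apart on chromosome 7, SAMD9 from 93099513 to 93118023 (ENSG00000205413) and SAMD9L from 93130055 to 93148369 (ENSG00000177409), both on the minus strand. SAMD9 rose by 0.56 with alisertib (1.48-fold, adjusted p = 0.000135) and by 0.44 in A100 (adjusted p = 0.0280) per the authors' deposited table. It stood at -0.03 in MK and 0.34 with JB170 (p = 0.00478, adjusted p = 1) per the authors' deposited table. SAMD9 had the smallest unadjusted p of the list in the alisertib and JB170 columns, while its interval in MK ran from -0.34 to 0.28. SAMD9L rose by 0.96 with alisertib (adjusted p = 0.00523), and stood at 0.66 in A100 (p = 0.0165, adjusted p = 0.298), 0.24 in MK and 0.23 with JB170 per the authors' deposited table. BST2, or tetherin, which holds budding virions at the cell surface (ENSG00000130303, chromosome 19 from 17402939 to 17405648 on the minus strand), rose by 0.31 with alisertib (adjusted p = 0.0160) per the authors' deposited table. Its highest value was in MK, 0.45 (p = 0.000936, adjusted p = 0.115), with 0.20 in A100 and 0.13 with JB170 per the authors' deposited table.

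The other effectors did not pass. MX2, a GTPase that blocks nuclear import of HIV, was below DMSO in all 4 comparisons, at -0.31 with alisertib (p = 0.00694, adjusted p = 0.0993), -0.29 in A100 (p = 0.0119, adjusted p = 0.256), -0.24 in MK and -0.15 with JB170 per the authors' deposited table. It was the 1 gene of the list with an unadjusted p under 0.05 below DMSO with alisertib. IFITM3, which hinders viral entry from endosomes, stood at 0.39 with alisertib (p = 0.0156, adjusted p = 0.162) and 0.08 with JB170 per the authors' deposited table. IFITM2, its close relative, stood at 0.12 with alisertib per the authors' deposited table; how reads common to such near-identical genes were counted is not given in the sources used here. OASL, which acts beside RIG-I, reached 0.89 in MK (p = 0.0235, adjusted p = 0.463) and 0.46 with alisertib per the authors' deposited table. RSAD2, or viperin, which makes a chain-terminating nucleotide, stood at 0.82 with alisertib (p = 0.0745), -0.71 in MK and -0.42 with JB170 per the authors' deposited table, at a mean of 1.07 log2 CPM. GBP2, a GTPase of defence against intracellular bacteria, stood between 0.29 and 0.36 in all 4 comparisons per the authors' deposited table, with no value past the threshold. ADAR, the RNA editing enzyme that masks self RNA from MDA5, was at 0.04 with alisertib and 0.02 with JB170 per the authors' deposited table. The remaining effectors were flat or imprecise. With alisertib, PLSCR1, a phospholipid scramblase, stood at -0.07, the exonuclease ISG20 at 0.49 and the RNA-binding IFIT5 at 0.52 per the authors' deposited table, none past the threshold. IFIT5 and ISG20 were low, at means of 0.22 and 1.36 log2 CPM per the authors' deposited table. RSAD2 overlaps CMPK2 over 830 bases on opposite strands; CMPK2, a mitochondrial nucleotide kinase, stood at 0.10 with alisertib and -0.34 with JB170 per the authors' deposited table. The libraries were directional, but whether counting used the strand is not stated, so these values and those of other genes overlapping on opposite strands are uncertain.

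**Figure D2:**
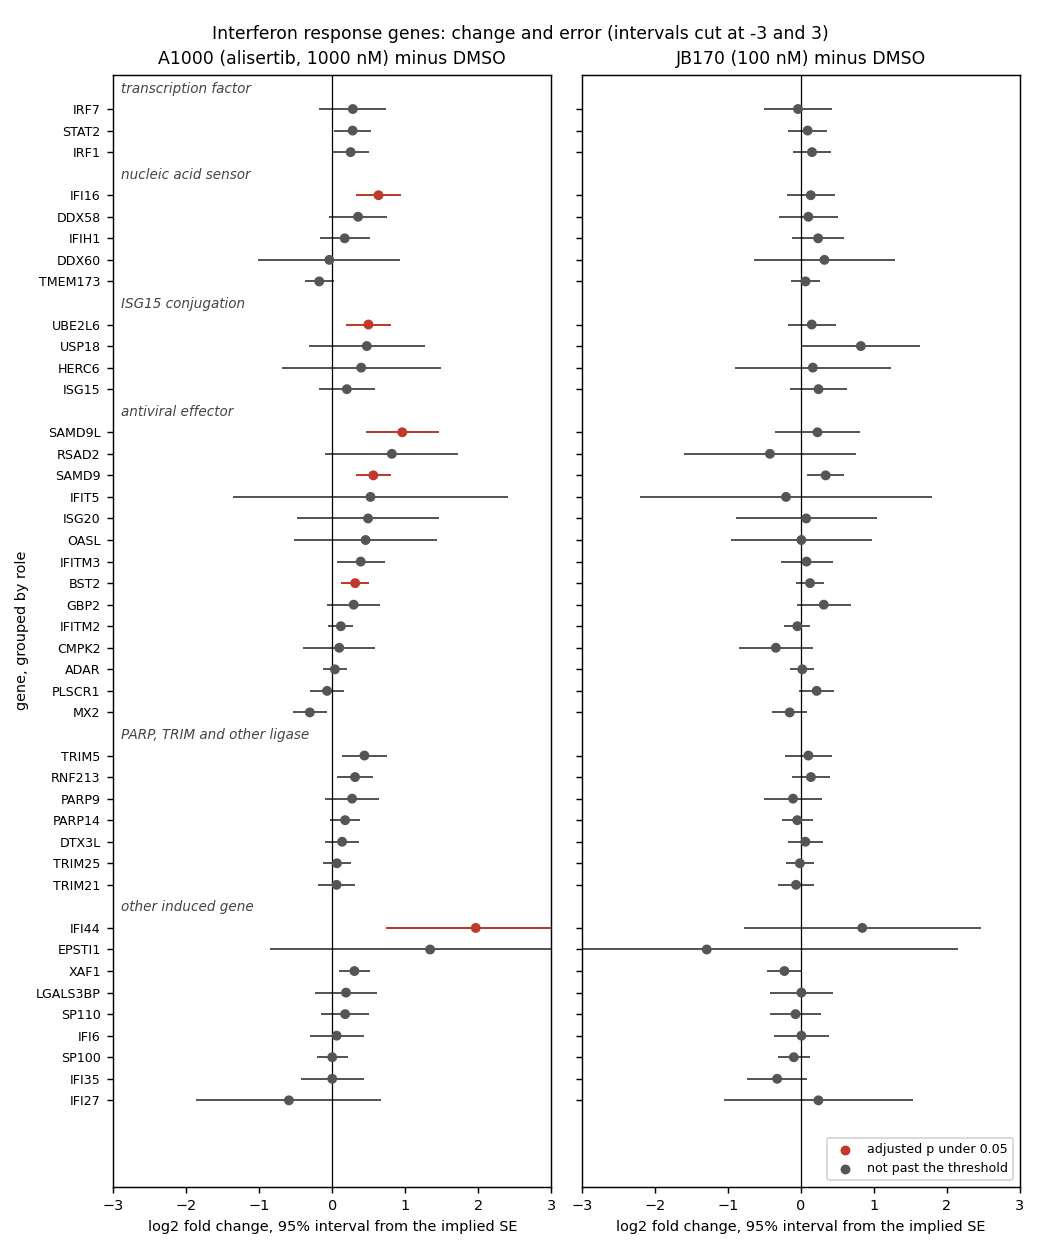
Log2 fold change of each of the 42 genes with alisertib at 1000 nM (left) and JB170 at 100 nM (right), each minus DMSO, with an approximate 95% interval from the standard error implied by the deposited fold change and p-value. Red marks an adjusted p under 0.05, reached by 6 genes on the left and none on the right; the intervals of low genes such as IFI44 and EPSTI1 are wide and are cut at -3 and 3.

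Of 7 genes for ADP-ribosyltransferases and ubiquitin ligases, none passed with alisertib, where 5.92% of all genes did. All 7 values lay above 0, from 0.06 to 0.44, against 51.2% of all genes. RNF213, a giant ligase with antimicrobial activity and the susceptibility gene of moyamoya disease (ENSG00000173821, chromosome 17 from 80260866 to 80398786 on the plus strand), rose by 0.50 in A100 (adjusted p = 0.00711) per the authors' deposited table. It stood at 0.31 with alisertib (p = 0.00870, adjusted p = 0.115), at -0.41 in MK (p = 0.0133, adjusted p = 0.395) and at 0.14 with JB170 per the authors' deposited table. The implied intervals of RNF213 in A100, 0.27 to 0.74, and in MK, -0.73 to -0.08, do not overlap; the difference between these columns was not tested. TRIM5, a restriction factor that recognises retroviral capsids, stood at 0.44 with alisertib (p = 0.00277, adjusted p = 0.0532), just outside the threshold, and 0.10 with JB170 per the authors' deposited table. PARP14 stood at 0.18 with alisertib and 0.29 in A100 (p = 0.00394, adjusted p = 0.146) per the authors' deposited table. PARP9 and its partner DTX3L, which share 340 bases on opposite strands, stood at 0.27 and 0.14 with alisertib per the authors' deposited table. The ligases TRIM21, a cytosolic antibody receptor, and TRIM25, which acts on RIG-I signalling, both stood at 0.06 with alisertib per the authors' deposited table.

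Among the 9 remaining genes, IFI44 rose with alisertib. IFI44, an interferon-induced gene that slows cell proliferation when overexpressed (ENSG00000137965, chromosome 1 from 78649796 to 78664078 on the plus strand), was higher by 1.97 (3.91-fold, adjusted p = 0.0356) per the authors' deposited table. Its mean was only 0.44 log2 CPM per the authors' deposited table, and the implied interval ran from 0.75 to 3.19. It stood at 0.89 in A100, 0.90 in MK and 0.84 with JB170 per the authors' deposited table, none with an unadjusted p under 0.05. XAF1, which promotes apoptosis, stood at 0.30 with alisertib (p = 0.00333, adjusted p = 0.0604) and -0.23 with JB170 (p = 0.0444, adjusted p = 1) per the authors' deposited table. With the JB170 column turned, both values of XAF1 would lie above 0. IFI6, a mitochondrial and endoplasmic reticulum protein, stood at 0.56 in MK (p = 0.00356, adjusted p = 0.228) and at 0.06 with alisertib per the authors' deposited table. IFI27 stood at -0.59 with alisertib and 0.24 with JB170 per the authors' deposited table, at a mean of 0.75 log2 CPM. With alisertib, SP100 of the PML nuclear bodies was at 0.00, its relative SP110 at 0.18 and the secreted LGALS3BP at 0.19 per the authors' deposited table. IFI35 was at 0 to 2 decimals with alisertib and between -0.35 and -0.33 in the other 3 comparisons per the authors' deposited table, with no value past the threshold. EPSTI1 had the lowest mean of the list, -0.42 log2 CPM, and stood at 1.34 with alisertib and -1.29 with JB170 per the authors' deposited table; its intervals were the widest drawn and hold 0 in each.

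Whether the alisertib and JB170 responses differed was tested as the difference of the log2 fold changes over an implied standard error, adjusted by the Benjamini-Hochberg method over all 13410 genes. This approximate normal test, at doses of 1000 nM and 100 nM, called none of the 42 genes, against 0.283% of all genes. Its error holds the variance of the shared DMSO libraries in both columns, so it is too large and leans towards no call. By this test, the calls with alisertib do not show that JB170 acted otherwise. Before adjustment 2 of the 42 passed 0.05, XAF1 and IFI16, where 4.73% of all genes did. XAF1 differed by 0.53 (interval 0.23 to 0.83) and IFI16 by 0.50 (interval 0.07 to 0.93). To take off the common DMSO group, the summed variance was also divided by 2, which assumes groups of equal size and variance. With this smaller error, these same 2 genes passed after adjustment, where 2.81% of all genes did. For SAMD9 the difference was 0.22 (interval -0.10 to 0.55) and for SAMD9L 0.73 (interval -0.01 to 1.48). For BST2 it was 0.19 (interval -0.07 to 0.44) and for UBE2L6 0.35 (interval -0.08 to 0.78). The intervals of these 4 genes hold 0, but they use the error that is too large. With the smaller error, SAMD9L, UBE2L6 and BST2 passed 0.05 before adjustment and SAMD9 did not. None of these 4 genes passed after adjustment with either error. Alisertib minus A100 gave no call among the 42 genes either, against 0.0895% of all genes. Before adjustment XAF1 alone of the 42 passed, at 0.38 (interval 0.08 to 0.68), where 2.44% of all genes did. With the smaller error none of the 42 was called after adjustment, against 0.753% of all genes. That error assumes equal groups, and the labels give no group for A100.

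The precision of the table limits these counts. The largest p called was 0.00251 with alisertib and 1.73e-06 with JB170, because few genes passed there. With the median error of genes at their level, the 30 genes whose mean reached 3 log2 CPM would have needed a median change of 0.38 on the log2 scale to be called with alisertib, 0.44 in A100, 0.60 in MK and 0.60 with JB170. For the 12 lower genes the median needed was 1.57 with alisertib and 2.45 with JB170. These figures are no floor, since a gene's own error can be smaller. IFI44 was called with alisertib at 1.97, where 2.42 was needed by this measure, and IFI16 in A100 at 0.52, where 0.57 was. A change with JB170 of the size seen for SAMD9 with alisertib, 0.56, was below the 0.58 needed for that gene by the same measure.

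**Figure D3:**
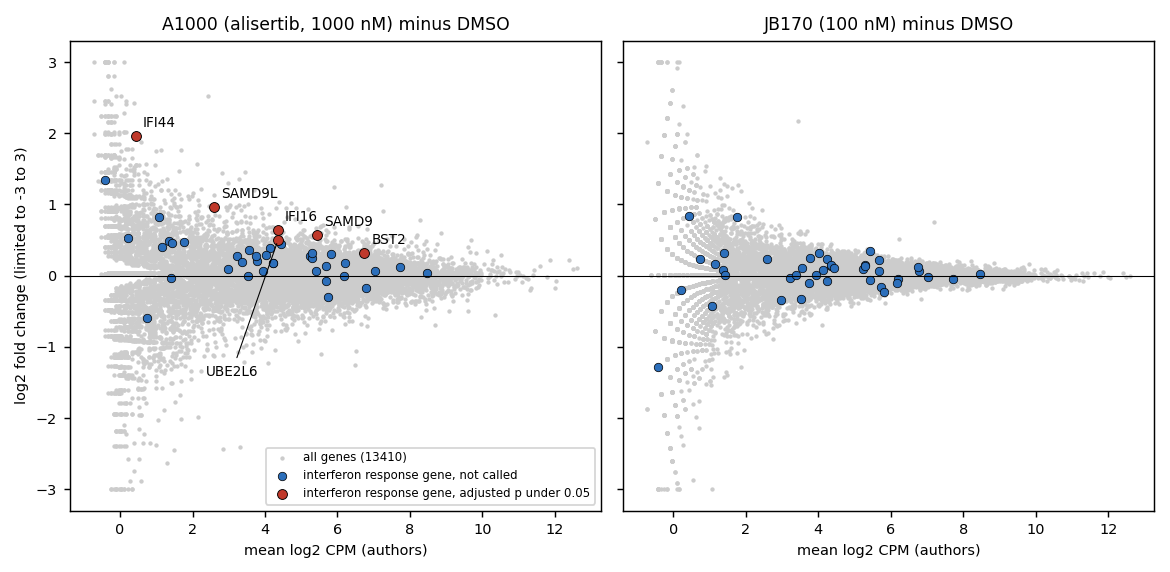
Log2 fold change (treated minus DMSO) against the authors' mean log2 CPM for all 13410 genes (grey) and the 42 interferon response genes (blue, or red and named with an adjusted p under 0.05), with alisertib at left and JB170 at right. Values are limited to -3 and 3. The spread widens at low means; 5 of the 6 called genes lie at a mean above 2 log2 CPM and IFI44 at 0.44.

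The rest of the pathway was followed through 120 other genes, of which 89 have a row. None of the 12 interferon genes listed has one, IFNB1 included, so the ligands are not analysed here. With alisertib 5 of the 89 rose and 1 fell (6.74% against 5.92% of all genes), their median was 0.04, and 55 values lay above 0. With A100, MK and JB170 none of the 89 was called, where 1.3%, 0.47% and 0.0298% of all genes were. At an unadjusted p under 0.05 stood 12 of the 89 in A100 (13.5%, against 11.6% of all genes), 7 in MK (7.87%, against 8.65%) and 4 with JB170 (4.49%, against 3.02%), shares near the background. Of the 5 receptor genes none passed: with alisertib IFNAR1 stood at 0.09, IFNAR2 at -0.41 (p = 0.0123, adjusted p = 0.141), IFNGR1 at 0.14 and IFNGR2 at 0.28 per the authors' deposited table. Downstream, the kinase JAK1 rose by 0.29 with alisertib (adjusted p = 0.0320) and stood at 0.07 with JB170 per the authors' deposited table. TYK2 was at 0.00, JAK2 at 0.10 and STAT3 at 0.09 with alisertib per the authors' deposited table, none past the threshold.

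IRF4, a lymphoid and dendritic cell factor of the same family, rose by 0.74 with alisertib (adjusted p = 0.0101) and stood at 0.52 in A100, 0.37 in MK and 0.07 with JB170 per the authors' deposited table. IRF3, the factor activated below STING, was at -0.16, and IRF8, a monocyte lineage factor, at 0.04 with alisertib per the authors' deposited table. Among sensing genes MYD88, the adaptor of Toll-like receptors, rose by 0.38 with alisertib (adjusted p = 0.0143) and stood at -0.04 with JB170 per the authors' deposited table, while MB21D1, which encodes cGAS, was at -0.01 with alisertib. Among genes that restrain the signal, PTPN6, the phosphatase SHP-1, fell by 0.29 with alisertib (adjusted p = 0.00843) and SOCS3 stood at 0.44 (adjusted p = 0.287) per the authors' deposited table; SOCS1 has no row and is not analysed here. Of 47 further interferon-stimulated genes, B2M, the light chain of HLA class I, rose by 0.34 with alisertib (adjusted p = 0.000155) per the authors' deposited table. C19orf66, an inhibitor of viral frameshifting, rose by 0.64 (adjusted p = 0.0489) per the authors' deposited table. The other 45 did not pass, and their median together with these was 0.06, against 0.28 in the list of 42.

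**Figure D4:**
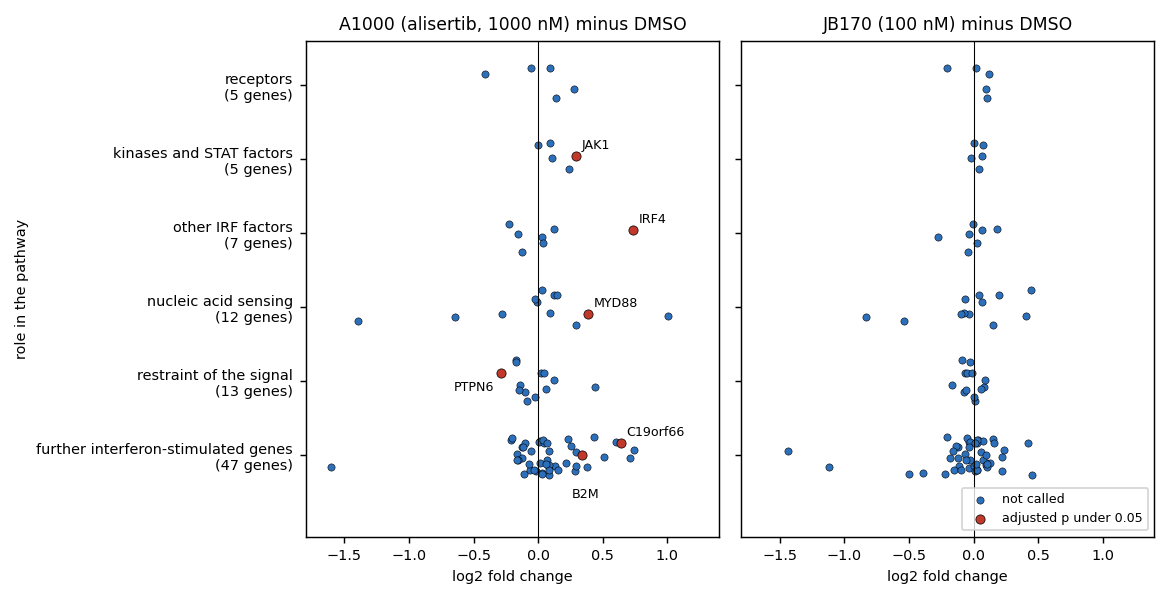
Log2 fold change (treated minus DMSO) of the 89 other pathway genes with a row, by role, with alisertib at 1000 nM (left) and JB170 at 100 nM (right); vertical scatter within a role only separates points. Red marks an adjusted p under 0.05, reached on the left by JAK1, IRF4, MYD88, C19orf66 and B2M above 0 and PTPN6 below, and by none on the right.

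The promoter letters were compared with the changes. Of the 42 genes, 35 matched the RefSeq table of starts, and in 18 of the 35 (51.4%) at least 1 window of 250 bases held this core on either strand, against 3.71% of 27305 genes and 3.02% of all 35116 windows. The list was assembled from known interferon targets, so this share describes the choice of genes. Among these 18 genes 3 rose with alisertib (SAMD9, BST2 and IFI44). Among the 17 with no exact match 3 rose as well (SAMD9L, IFI16 and UBE2L6). The SAMD9L window holds aaaactgaaa, which differs from the core at its first base, and such near matches were not counted. The median change with alisertib was 0.29 with an exact match and 0.25 without one, and with JB170 it was 0.090 and 0.062. The palindrome TTCNNNGAA, the core of the gamma-activated site, was present in 8 of the 35 genes (22.9%), against 8.09% of all genes, and 1 of these 8, BST2, rose with alisertib.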

How the data were processed

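RNA of 9 MV4-11 libraries was sequenced after poly(A) enrichment, in directional libraries, per the labels' protocols. Per the submitters' processing notes the tools include FastQC, Bowtie2 2.3.2 and TopHat2 2.1.1, with the build hg19. How reads were counted, normalized and tested is not given in the sources used here. Per the file headers, the authors' columns are the log2 fold change, its p-value before and after adjustment, and 1 mean log2 CPM. Repeated identifiers were reduced to 1 row, leaving 13410 genes. The authors' adjusted p was taken as it is, with calls under 0.05. The adjusted p-values imply 16812 tests by the authors.

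As deposited, JB170 correlated with A1000, A100 and MK at r = -0.49, -0.53 and -0.45 (across genes). The others correlated with each other at 0.49 to 0.53, although all 4 headers name DMSO. Low counts stretch a log ratio towards the depleted group. Over 1517 genes under 0.5 log2 CPM, with all columns but JB170 multiplied by -1, 23 exceeded 1.5 in all 4 columns and 1 was below -1.5 in all, and JB170 lay under the mean of the others by over 1.5 in 96 genes and above it in 25. The direction treated minus DMSO rests on this. In these genes the mean log2 CPM and the JB170 fold change form 494 distinct pairs, against 1235 to 1403 with other columns. The mean may therefore cover only the JB170 and DMSO libraries, which was not tested.

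An implied standard error was the absolute log2 fold change over the z of its p-value if that z reached 1; below it, the median error of the gene's bin of mean log2 CPM (60 bins) was used. Intervals and the two-sided normal tests of differences use it. Python 3.11.15, pandas 2.3.3 and SciPy 1.17.1 were used. Of the interferon response genes, those that passed or had an unadjusted p under 0.05 in any comparison were named, with well-known ones; of the other pathway genes, those that passed and a fixed set of receptors, kinases and factors. The result of 1 gene is not reported here. The genes and lists were chosen with earlier results of these data known. Positions are from GENCODE annotation of GRCh38.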

Additional observations from a re-analysis of the deposited data

How the results depend on the processing

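No paired analysis was possible because the table gives comparisons and no values per library; for the same reason no replicate could be left out. Among the 42 genes, the alisertib count of 6 was 3 at an adjusted p under 0.01 and 9 under 0.10. The 9 include MX2, which lay below DMSO. The A100 count of 3 was 1 at the stricter threshold. Adjusting over the rows used here gave 7 with alisertib, and over genes of at least 3 log2 CPM 6. The latter are not the same 6 genes, because SAMD9L (mean 2.59 log2 CPM) and IFI44 (0.44 log2 CPM) were left out and others entered. The counts with MK and JB170 stayed at 0 in the 4 alternatives each. The alisertib minus JB170 count of 0 became 2 with the shared DMSO libraries taken off the error and 4 if the JB170 column was given the sign of the remaining columns, which also turned the JB170 median, 0.068, to -0.068. Alisertib minus A100 gave 0 in its 3 alternatives. Medians kept their sign with the mean in place of the median and at higher levels, where the alisertib median was 0.20 and that of MK 0.05. Depth is unknown, and the 12 genes under 3 log2 CPM limit what could be called.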
